A study of Mus musculus with 4 samples.

Results

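A small group of transcripts was read in the Ezh2 f/f libraries and was nearly absent from the Ezh2 cKO libraries. The genes were selected on the raw counts themselves: a gene entered when both Ezh2 cKO libraries held at most 3 reads and both Ezh2 f/f libraries held at least 20, on an autosome by its deposited position, with Avp and Otp left out. A total of 58 of 29224 genes met this rule. Of these, 11 had 0 reads in both Ezh2 cKO libraries, while the other 47 had at least 1 read there, so that "only" is literal for 11 of them. Because the members were chosen by the contrast between the groups, the difference between Ezh2 f/f and Ezh2 cKO in their counts is given as a description, without a test.

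The study's methods describe the RNA as that of cortical astrocytes of mice at postnatal day 5, captured on anti-GLAST (ACSA-1) magnetic beads; GLAST is a glutamate transporter of the astrocyte membrane. The sample labels name only cerebral cortex and a Trizol extraction, where the methods name a column kit, so that whether the libraries hold sorted cells or whole cortex is not settled by these sources. Ezh2 f/f mice carry loxP-flanked Ezh2 alleles (2 libraries), and Ezh2 cKO mice carry in addition Aldh1l1-icre (2 libraries), a Cre that recombines the alleles wherever the astrocyte gene Aldh1l1 is active. The study used C57BL/6J and ICR mice; the strain of each library, whether animals were pooled, and whether the libraries of a group came from separate animals are not stated in the sources used here, so p-values measure only the spread between these libraries. In bulk RNA, fewer cells of a type and less RNA per cell cannot be told apart.

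Ezh2 is the catalytic subunit of Polycomb repressive complex 2, which places the H3K27me3 mark on chromatin and keeps many tissue-specific and developmental genes silent. Genes that are known from other organs, such as those of liver, testis, retina or the olfactory system, can be read at trace levels in brain RNA. Their promoters are often poor in CpG dinucleotides, in contrast to the CpG islands of housekeeping and developmental regulator genes.

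Some properties of the libraries touch the values below. Total counts lay between 16273308 and 17522152 per library, so that 3 reads stood for 0.171 to 0.184 CPM (counts scaled to library size). This range uses the raw totals, whereas the CPM values below also carry a scaling factor for each library. Ezh2 itself was counted 434 and 327 times in Ezh2 f/f against 211 and 164 times in Ezh2 cKO, with a log2 fold change (Ezh2 cKO over Ezh2 f/f, as throughout) of -1.11 (SE 0.162; adjusted p = 3.26e-05, edgeR's quasi-likelihood test with Benjamini-Hochberg adjustment over all genes tested); reads over the whole gene do not separate a deleted exon from the rest. Astrocyte markers were detected in all libraries, but 10 of 12 were higher and 0 lower in Ezh2 cKO, with summed levels of 1016 and 1075 CPM in Ezh2 f/f against 4034 and 3658 CPM in Ezh2 cKO; markers of the cell type named in the methods were thus lower in the group in which the members were read, and their part in the members' values was not tested. Neuronal markers were abundant in all 4 libraries, at 6762 to 8264 CPM in sum over 10 genes.

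The Ezh2 f/f libraries also differed from each other. Tcf7l2, a transcription factor of thalamic neurons, was counted 88 times in library 1 and 1457 times in library 2, against 60 and 75 times in Ezh2 cKO. Gbx2, another thalamic regulator, was counted 9 and 138 times in Ezh2 f/f and 0 times in both Ezh2 cKO libraries. Over 7 thalamic genes, the ratio of library 2 to library 1 in CPM had a median of 2.64. Over the 58 members it had a median of 1.13 and ran from 0.544 to 1.69, and 52 members differed by less than 1.5-fold between the libraries. The members were required to reach 20 reads in both libraries, which limits how far this ratio can move. Without library 2, 80 genes met the rule. Library 1 of each group held Y-linked reads (Kdm5d: 389 reads with Ezh2 f/f and 284 with Ezh2 cKO, against 0 in both libraries numbered 2), and library 2 of each group held Xist (3632 and 3834 reads, against 13 and 1), so that this difference was balanced over the groups.

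**Figure D1:**
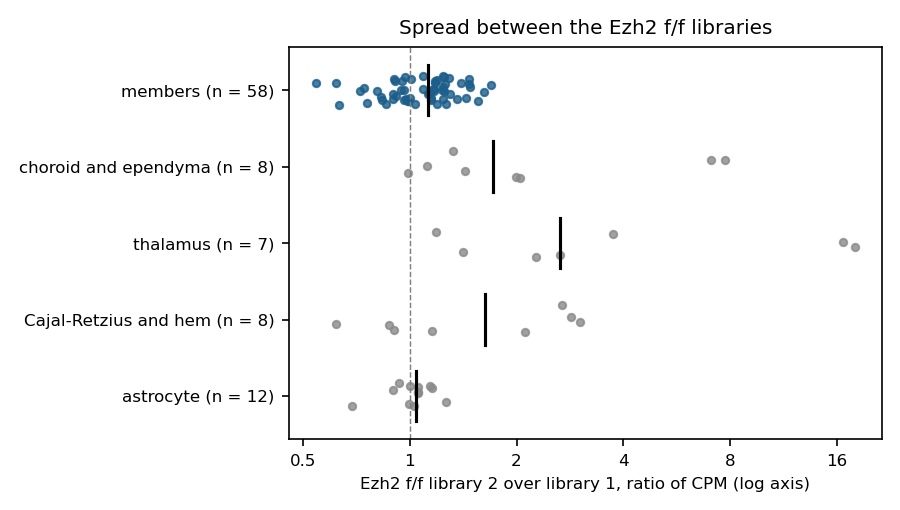
Ratio of CPM in Ezh2 f/f library 2 over library 1 (log axis), with 1 point per gene and a black bar at the median of each set; listed genes need 40 or more reads summed over both libraries. Members lie between 0.544 and 1.69 around a median of 1.13, whereas 2 thalamic genes lie at or near the highest ratio drawn, 18.

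The members were a mixture of gene classes. By the deposited classes, 31 were protein coding, 14 were long noncoding RNAs (lncRNAs), 8 were pseudogenes (5 processed, 2 unprocessed and 1 transcribed processed), 2 were TEC rows (loci still to be experimentally checked), and 1 each was an miRNA, an snRNA and a misc_RNA. Protein-coding genes made up 53.4% of the members, 61.2% of all genes in the table, and 91.9% of the 13559 autosomal genes with at least 20 reads in both Ezh2 f/f libraries. lncRNAs made up 24.1% of the members and 3.86% of those 13559 genes, and pseudogenes 13.8% and 3.34%. Those 13559 genes had no upper limit on reads, whereas the mean Ezh2 f/f counts of the members reached at most 155. Class shares at like counts were not computed, so the part of the count level in these contrasts was not tested. The 63 autosomal genes that met the same limits with the groups exchanged, and so had at most 3 reads in each Ezh2 f/f library, held 29 protein-coding genes (46.0%), so a low protein-coding share was found on either side. The members lay on 18 of the autosomes.

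**Figure D2:**
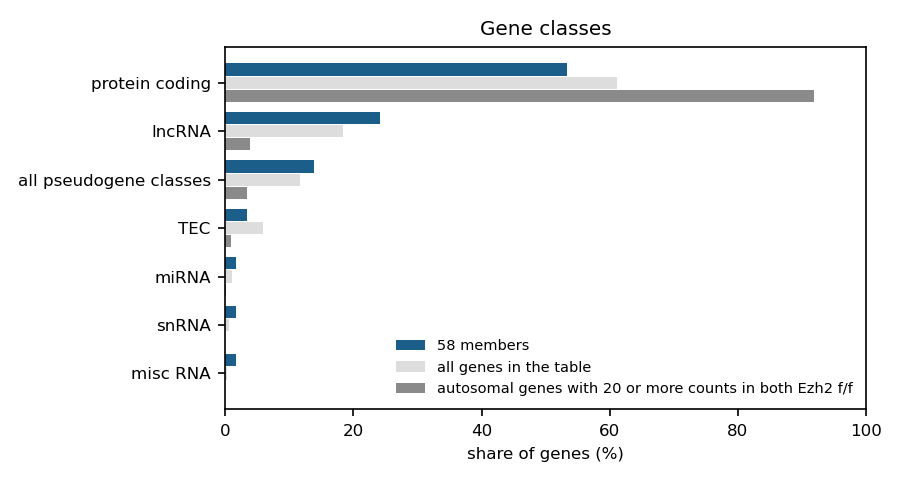
Share of genes (%) in each deposited class, for the 58 members, for all genes in the table and for autosomal genes with 20 or more reads in both Ezh2 f/f libraries. Protein-coding genes are 53.4% of members but 91.9% of the last group, which has no upper limit on reads.

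Promoter sequences of the members are shown to let the CpG content be read directly. RefSeq windows on GRCm38.p6, of 250 bases before and 50 after a gene's start, were matched by symbol for 24 of the 31 protein-coding members and 4 of the noncoding ones. Those of Itih4 and Tex35, the protein-coding members with the highest counts, hold few CpG. Those of Btbd18, with 0 reads in both Ezh2 cKO libraries, and of the homeobox gene Uncx hold many. Each runs from 5′ to 3′ along the gene, and capitals mark every CpG.
Itih4, chr14:30886226-30886525, plus strand: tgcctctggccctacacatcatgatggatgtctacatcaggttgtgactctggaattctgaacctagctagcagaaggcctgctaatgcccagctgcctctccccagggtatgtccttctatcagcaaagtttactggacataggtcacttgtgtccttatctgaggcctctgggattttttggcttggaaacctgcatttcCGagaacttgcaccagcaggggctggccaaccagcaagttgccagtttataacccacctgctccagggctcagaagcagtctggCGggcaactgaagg
Tex35, chr1:157108609-157108908, minus strand: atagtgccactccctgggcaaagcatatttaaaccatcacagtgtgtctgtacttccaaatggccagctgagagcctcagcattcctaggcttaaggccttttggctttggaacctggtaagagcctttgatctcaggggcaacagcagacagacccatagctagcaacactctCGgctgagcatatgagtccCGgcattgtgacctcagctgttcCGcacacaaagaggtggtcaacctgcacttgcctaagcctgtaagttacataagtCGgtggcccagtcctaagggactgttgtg
Btbd18, chr2:84658829-84659128, plus strand: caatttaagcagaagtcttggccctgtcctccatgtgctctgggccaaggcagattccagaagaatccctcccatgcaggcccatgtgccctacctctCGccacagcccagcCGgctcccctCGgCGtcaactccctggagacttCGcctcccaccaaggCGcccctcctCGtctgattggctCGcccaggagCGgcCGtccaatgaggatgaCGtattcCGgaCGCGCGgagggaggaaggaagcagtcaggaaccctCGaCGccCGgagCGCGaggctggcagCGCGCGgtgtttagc
Uncx, chr5:139543648-139543947, plus strand: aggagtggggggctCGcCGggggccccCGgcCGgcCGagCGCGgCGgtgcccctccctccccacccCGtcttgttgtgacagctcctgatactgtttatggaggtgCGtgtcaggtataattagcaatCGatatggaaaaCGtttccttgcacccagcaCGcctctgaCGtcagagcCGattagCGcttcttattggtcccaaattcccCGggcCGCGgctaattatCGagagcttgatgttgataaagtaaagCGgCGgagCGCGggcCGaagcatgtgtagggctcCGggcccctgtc
The counts of CpG were 2 in Itih4, 4 in Tex35, 23 in Btbd18 and 26 in Uncx.

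CpG-poor promoters prevailed among the protein-coding members. Their median was 5.5 CpG per 300-base window, against 16 for 2502 other protein-coding genes whose Ezh2 f/f counts reached 20 in both libraries and did not exceed those of the highest member, and 17 over 13967 protein-coding genes. Fewer than 10 CpG were found in 18 of 24 members (75.0%) and in 29.3% of those 2502 genes. The lowest was Olfr460 with 0 CpG, and the highest was Skor1 with 46. Among the protein-coding genes of the exchanged set, 18 were matched, with a median of 8.5 CpG, and 11 of them (61.1%) fell under 10. These shares are descriptions without a test, and CpG content was not set against any measure of Polycomb binding here.

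**Figure D3:**
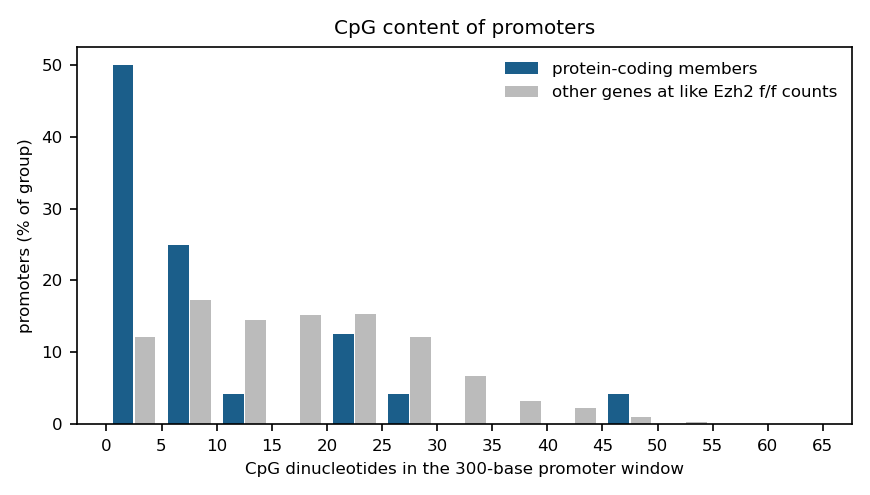
Share of promoters (%) by the number of CpG in a 300-base window, in bins of 5, for the 24 matched protein-coding members and 2502 other protein-coding genes at like Ezh2 f/f counts. Of the members, 75.0% fall in the first 2 bins, against 29.3% of the other genes.

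Short motifs were searched on both strands of the same windows. The TATA box letters TATAAA were found in 5 of 24 members (20.8%), among them Itih4, Obp2a, Cym and Nppb, and in 9.24% of all protein-coding promoters. The GC box letters GGGCGG were found in 2 of 24 (8.33%) and in 56.2% of all, CCAAT in 6 (25% against 38.2%), the E-box CACGTG in 1 (4.17% against 9.17%) and the cAMP response element core TGACGT in 3 (12.5% against 10.1%). A match describes letters only, and GGGCGG itself holds a CpG, so its share moves with the CpG count.

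The level of the members was low in Ezh2 f/f too. Mean Ezh2 f/f counts had a median of 31.5 reads and ran from 21.0 to 155, and 47 members lay under 50. In sum, the members took 2251 and 2227 reads in Ezh2 f/f (0.0129% and 0.0137% of each library) and 70 and 80 reads in Ezh2 cKO. Scaled to length, 26 of 58 had a mean under 1 FPKM (reads scaled to gene length and library total) in Ezh2 f/f, and the highest were 2 short RNAs, Gm25186 at 24.1 FPKM over 108 bases and Mir296 at 21.4 FPKM over 79 bases. All 58 passed edgeR's filter on low counts, and all 58 were called lower in Ezh2 cKO, which the rule forces; of all genes tested 33.6% were called lower and 34.7% higher. The members were 1.40% of the 4140 autosomal genes with at least 20 reads in both Ezh2 f/f libraries and a mean no higher than that of the top member.

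The limits of the rule cut through a continuous range. Just inside the Ezh2 cKO limit, 5 members had 3 reads in both Ezh2 cKO libraries: Gm38431, Gm9465, 1700001J03Rik, Gm41611 and Atp2a1. Just outside it were 14 genes with 4 reads in the higher Ezh2 cKO library. Those with the most Ezh2 f/f reads were Tulp1, a photoreceptor gene (201 and 204 reads, then 4 and 1 for Ezh2 cKO), the lncRNA B230303O12Rik (130 and 134, 3 and 4), the lncRNA 4930474N09Rik (100 and 94, 4 and 2), Gm42462 (68 and 74, 4 and 3) and Rrh, an opsin of the retinal pigment epithelium (42 and 48, 4 and 3). At the other limit, 7 members had exactly 20 reads in the lower Ezh2 f/f library, and 3 genes had 19: Gm49966 (19 and 30, then 1 and 1), Gm7457 (28 and 19, then 0 and 1) and the homeobox gene Nkx1-1 (19 and 21, then 0 and 0).

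**Figure D4:**
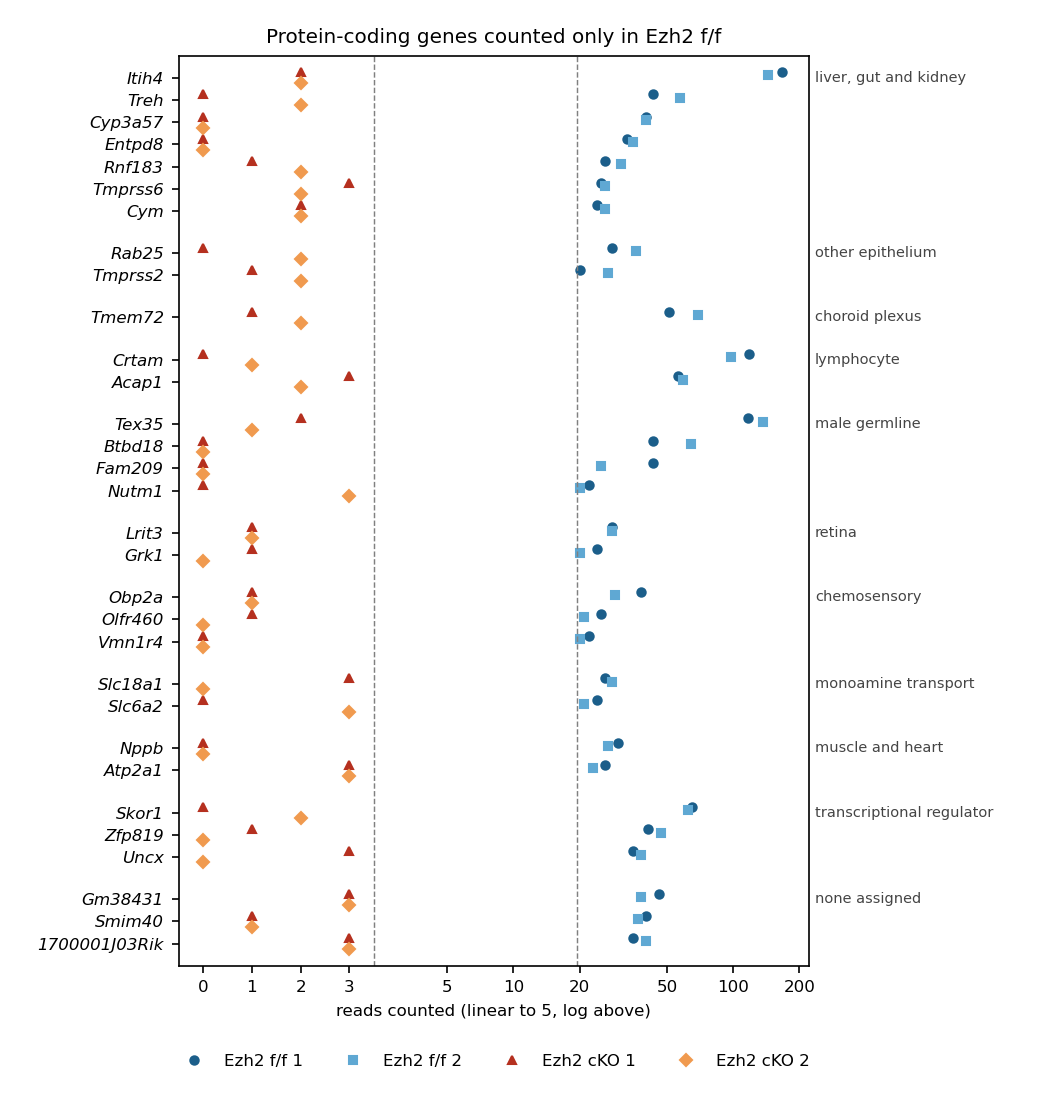
Reads counted in each of the 4 libraries (axis linear to 5 and logarithmic above) for the 31 protein-coding members, grouped by the tissue or function each is best known for; dashed lines mark the limits of the rule. Itih4, with 166 and 144 reads, Tex35 with 117 and 136 and Crtam with 118 and 98 stand above all other members.

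Among the sources assigned by hand to the protein-coding members, the largest was liver, gut and kidney, with 7 genes. This source pools several organs, so its rank depends on the grouping. Itih4, a plasma protein of the inter-alpha-trypsin inhibitor family made in liver, was counted 166 and 144 times in Ezh2 f/f against 2 times in each Ezh2 cKO library. The level in Ezh2 f/f was 9.43 ± 0.392 CPM (SD, n = 2), and the summed reads were 82.6-fold higher than in Ezh2 cKO after scaling to library size (95% exact interval from counting error only, 31.9 to 305). It lies at 14:30608433-30624310 of the deposited positions, whose genome build is not named.

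Treh, the trehalase of the intestinal brush border, was counted 43 and 57 times in Ezh2 f/f against 0 and 2 times in Ezh2 cKO. Its deposited span overlaps Phldb1 on the other strand, a gene with 2131 to 3975 reads per library, and whether the counting used strand is not given in the sources used here, so its reads are uncertain. Cyp3a57, a cytochrome P450, had 40 reads in both Ezh2 f/f libraries and 0 in both Ezh2 cKO libraries, a level at least 28.4-fold higher in Ezh2 f/f when 3 reads over the Ezh2 cKO group are taken as the floor. It belongs to a family of closely similar genes, among which reads can be split. Entpd8, an ecto-nucleotidase of liver and intestine, had 33 and 35 reads against 0 and 0, at least 24.2-fold.

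The remaining members of this source were near the limit. Rnf183, an E3 ubiquitin ligase of kidney and gut, had 26 and 31 reads in Ezh2 f/f against 1 and 2 in Ezh2 cKO. Tmprss6, the liver protease that controls hepcidin, had 25 and 26 against 3 and 2. Cym, the milk-clotting protease chymosin of the stomach, had 24 and 26 against 2 and 2. Relatives of these genes, chosen after values were seen, were higher in Ezh2 cKO or not called. Itih3, the neighbour of Itih4 in the same cluster, rose in Ezh2 cKO (100 and 110 against 326 and 198 reads; log2 fold change 1.22, SE 0.221, adjusted p = 2.20e-04, edgeR), and so did the paralogues of Entpd8, Entpd1 (0.95) and Entpd2 (1.25; adjusted p = 1.53e-04 and 1.01e-04, edgeR). Itih2 (-0.30, adjusted p = 0.178) and Itih5 (-0.02, adjusted p = 0.924) were not called, and Cyp3a13 had 0, 0, 1 and 0 reads, too few to test.

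Defining liver genes were read at low levels. In a list of defining liver genes, added after values were seen, 7 of 10 were in the table, at 1.04 to 1.40 CPM in sum in every library with no separation of the groups. Alb, the most abundant liver transcript, had 3 and 0 reads in Ezh2 f/f against 2 and 0 in Ezh2 cKO. Apoa2 was the one tested gene of the list and was not called (log2 fold change 0.17).

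Rab25 and Tmprss2 are genes of other epithelia. Rab25, a small GTPase of apical recycling, was counted 28 and 36 times in Ezh2 f/f against 0 and 2 times in Ezh2 cKO. Mex3a lies 633 bases away on the other strand, with 6722 and 5763 reads in Ezh2 f/f against 625 and 621 in Ezh2 cKO. The reads of Rab25 are therefore uncertain. Tmprss2, a serine protease of prostate and airway, was counted 20 and 27 against 1 and 2 times. The broadly expressed relatives of Rab25 moved in opposite directions, with Rab11a higher in Ezh2 cKO (log2 fold change 0.73) and Rab11b lower (-0.84; adjusted p = 6.15e-05 and 9.83e-07, edgeR). Of 5 tested genes in a list of epithelial markers added after values were seen, 2 were lower in Ezh2 cKO, Krt18 (25 and 48 against 7 and 8 reads) and Krt8 (17 and 13 against 6 and 4), and 0 were higher; Epcam had 4 to 12 reads in each library.

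Tmem72, a membrane protein of choroid plexus epithelium, was counted 51 and 69 times in Ezh2 f/f against 1 and 2 times in Ezh2 cKO. Its level in Ezh2 f/f was 3.68 ± 0.992 CPM and its ratio 42.6 (counting interval 14.2 to 210), a separation of the groups that the rule forces. Choroid plexus genes that were not used by the rule differed in the same direction. Ttr, the transthyretin gene and the dominant choroid plexus transcript, had 6326 and 11598 reads in Ezh2 f/f against 5 and 12 in Ezh2 cKO (log2 fold change -10.13, SE 0.386, adjusted p = 1.35e-10, edgeR). Folr1, the choroid folate receptor, had 85 and 160 against 6 and 7 (-4.32, adjusted p = 7.54e-07), and Kcne2 and Clic6 were also lower (-2.58 and -2.52).

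Not every choroid and ependymal marker fell. Of 9 tested markers in the list, Ezh2 cKO had 6 lower and 2 higher; Kl, which encodes klotho, rose from 2 and 3 to 23 and 23 reads (3.05, SE 0.561, adjusted p = 2.54e-04, edgeR). The summed list stood at 416 and 806 CPM in Ezh2 f/f and at 23.6 and 21.6 CPM in Ezh2 cKO. Between the Ezh2 f/f libraries, the CPM ratio of library 2 to library 1 was 1.47 for Tmem72, 1.99 for Ttr, 2.05 for Folr1, 1.32 for Clic6, 1.12 for Aqp1 and 0.991 for Kcne2. Of the other listed genes with enough reads, Foxj1 had a ratio of 1.43, and Otx2 and Ccdc153 had the largest, 7.72 and 7.065. Otx2 had 10 and 71 reads in Ezh2 f/f against 1 and 1 in Ezh2 cKO and was not tested. Ccdc153 had 6 and 39 against 71 and 52. The part of choroid plexus tissue in the values of Tmem72 and the other members was not tested.

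The lymphocyte genes among the members were Crtam and Acap1. Crtam, an adhesion receptor of activated cytotoxic T and NK cells that is also found in some neurons, was counted 118 and 98 times in Ezh2 f/f against 0 and 1 times in Ezh2 cKO. Its ratio was 230 (counting interval 40.9 to 9137), the highest among the 47 members with an Ezh2 cKO read, and rests on 1 such read, fewer than the floor of 3; the 11 members without one have only a lower bound and cannot be ranked against it. Cadm1, which encodes the ligand of the Crtam protein, had 1967 and 1286 against 1640 and 1668 reads and was not called (log2 fold change -0.06, SE 0.131). Acap1, a GTPase-activating protein for Arf6 in leukocytes, was counted 56 and 59 against 3 and 2 times, whereas its paralogue Acap3 had 3465 to 9690 reads per library and was lower (-1.40) and Acap2 was higher (0.34; adjusted p = 8.45e-09 and 0.0222, edgeR).

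T-cell genes were read unevenly. The T-cell receptor genes Cd3e and Cd3g had 1, 0, 0 and 0 and 0, 0, 1 and 0 reads in the order Ezh2 f/f 1 and 2, Ezh2 cKO 1 and 2, while the kinase gene Lck had 183, 172, 228 and 223 and was not called (log2 fold change 0.25). Of 4 tested genes in a lymphocyte list added after values were seen, 0 were lower and 1 was higher in Ezh2 cKO, Cd4, with 14 and 12 against 123 and 120 reads. The list summed to 14.5 and 13.7 CPM in Ezh2 f/f and to 22.4 and 21.8 CPM in Ezh2 cKO. Most of its reads in Ezh2 f/f were those of Lck, 183 of 248 and 172 of 216.

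Male germline genes numbered 4. Tex35, a testis-expressed gene, was counted 117 and 136 times in Ezh2 f/f against 2 and 1 times in Ezh2 cKO; per length it was the highest protein-coding member, at 6.11 and 7.65 FPKM in Ezh2 f/f. Its level was 7.74 ± 1.27 CPM (SD, n = 2) and its ratio 89.9 (30.4 to 439). Btbd18, a nuclear regulator of piRNA precursor transcription in male meiosis, had 43 and 64 reads against 0 and 0, at least 38.0-fold, the highest bound among the 11 members without an Ezh2 cKO read.

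Fam209, an acrosomal protein gene of sperm, had 43 and 25 reads in Ezh2 f/f against 0 and 0 in Ezh2 cKO. It was among the members least alike between the Ezh2 f/f libraries, with a CPM ratio of 0.632. Nutm1, a testis gene, had 22 and 20 against 0 and 3. Of 3 other germline genes tested in the fixed list, 0 were called lower in Ezh2 cKO. Dazl (2 and 4 against 24 and 43 reads, 3.34) and Ddx4 (5 and 5 against 19 and 15, 1.65) were higher. Taf7l, with 15 and 14 against 5 and 10 reads, was not called (-1.03, adjusted p = 0.0883, edgeR).

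Retinal genes were Lrit3 and Grk1. Lrit3, a membrane protein needed for signalling in ON bipolar cells, had 28 reads in both Ezh2 f/f libraries and 1 in both Ezh2 cKO libraries. Grk1, a kinase of photoreceptors, had 24 and 20 against 1 and 0. The opsin gene Rrh lies 378 bases from Lrit3 on the same strand and was also lower in Ezh2 cKO (log2 fold change -3.73, SE 0.458, adjusted p = 6.11e-06, edgeR). With Tulp1 and Rrh just outside the rule, retinal genes stood on both sides of its limit. Reads of a pair as close as Lrit3 and Rrh may be assigned to either gene, so those of Lrit3 are uncertain. A list of photoreceptor genes added after values were seen had no called gene: of 3 tested, 0 were lower and 0 higher by edgeR, with 0 at an unadjusted p under 0.05 and 0 called by DESeq2. The list summed to 3.81 to 4.36 CPM over the 4 libraries.

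Chemosensory genes were Obp2a, Olfr460 and Vmn1r4. Obp2a, an odorant-binding lipocalin, was counted 38 and 29 times in Ezh2 f/f and 1 time in each Ezh2 cKO library. Olfr460, an olfactory receptor, had 25 and 21 against 1 and 0. Vmn1r4, a vomeronasal receptor, had 22 and 20 against 0 and 0, the lowest bound of the group at 14.9-fold or more. Vmn1r4 and Olfr460 belong to large families of similar genes, and Vmn1r4 lies 83 bases from Nt5c3, which was lower in Ezh2 cKO (1131 and 964 against 644 and 706; -0.72, SE 0.0989, adjusted p = 1.71e-05, edgeR). The reads of these receptors are therefore uncertain. Closeness was not particular to Vmn1r4, since 12 members lay within 1000 bases of a neighbour that they did not overlap. Among them were Acap1 (161 bases from Kctd11), Tmprss6 (364 from Kctd17), Lrit3 (378 from Rrh) and Btbd18 (435 from Selenoh). Others were Rnf183 (550 from Prpf4), Rab25 (633 from Mex3a) and Nutm1 (837 from Lpcat4). Of these neighbours, Rrh, Selenoh, Prpf4 and Mex3a were lower in Ezh2 cKO, Kctd11 was higher, and Kctd17 and Lpcat4 were not called. Kctd11 had 15 and 9 reads in Ezh2 f/f, fewer than Acap1. The members named carry the limit of closeness, and the part of these neighbours in their reads was not tested.

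Monoamine transport was represented by Slc18a1 and Slc6a2. Slc18a1, the vesicular monoamine transporter of neuroendocrine cells, was counted 26 and 28 times in Ezh2 f/f against 3 and 0 times in Ezh2 cKO, and it overlaps Atp6v1b2 on the other strand, a gene with 5610 to 8652 reads per library that was higher in Ezh2 cKO (0.45). Slc6a2, the noradrenaline transporter, had 24 and 21 against 0 and 3. Other genes of noradrenaline synthesis and storage, in a list added after values were seen, did not fall: of 6 tested, 4 were higher and 0 lower in Ezh2 cKO. Dbh, the enzyme that forms noradrenaline, had 6 and 6 against 30 and 25 reads (2.08), the brain vesicular transporter Slc18a2 had 46 and 60 against 120 and 137 (1.18; adjusted p = 9.65e-04 and 5.00e-04, edgeR), and Th was not called (0.08).

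Muscle and heart genes were Nppb and Atp2a1. Nppb, which encodes the natriuretic peptide BNP, was counted 30 and 27 times in Ezh2 f/f and 0 times in both Ezh2 cKO libraries, at least 20.3-fold. Its relative Nppa had 2 and 2 against 2 and 5 reads and was too low to test. Atp2a1, the calcium pump of fast skeletal muscle, had 26 and 23 against 3 and 3, the lowest ratio of all members at 8.71 (3.73 to 24.9), and overlaps Rabep2 on the other strand. Its paralogues Atp2a2 and Atp2a3 were higher in Ezh2 cKO (0.92 and 1.51; adjusted p = 3.28e-07 and 1.53e-04, edgeR). In the fixed skeletal muscle list, 1 of 6 tested genes was lower (Tnnt3, 14 and 12 against 3 and 4 reads) and 3 were higher, Myh3, Myh8 and Actn2 (3.78, 3.47 and 2.65).

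Transcriptional regulators were Skor1, Zfp819 and Uncx. Skor1, a corepressor of LBX1 in dorsal spinal cord neurons, was counted 65 and 62 times in Ezh2 f/f against 0 and 2 times in Ezh2 cKO, with a ratio of 67.7 (18.4 to 565). Its Ezh2 f/f libraries were nearly equal, at 3.87 ± 0.0988 CPM. Zfp819, a KRAB zinc finger gene of stem cells and testis, had 41 and 47 against 1 and 0, while Zfp719, the zinc finger gene beside it on the same strand, rose in Ezh2 cKO from 43 and 34 to 196 and 206 reads (2.29, SE 0.208, adjusted p = 3.13e-07, edgeR). Uncx, a homeobox gene of somites and of developing neurons, had 35 and 38 against 3 and 0.

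The remaining protein-coding members had no source assigned: Gm38431 (46 and 38 against 3 and 3 reads), Smim40 (40 and 37 against 1 and 1) and 1700001J03Rik (35 and 40 against 3 and 3). Gm38431 overlaps Fdx2 on the same strand, which was lower in Ezh2 cKO (27 and 35 against 10 and 14; -1.46, SE 0.405, adjusted p = 0.0055, edgeR). 1700001J03Rik lies 3316 bases from the lncRNA B230303O12Rik on the same strand.

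Among the 27 members that are not protein coding, the unprocessed pseudogene Gm9237 had the most reads, 70 and 48 in Ezh2 f/f against 1 and 1 in Ezh2 cKO. Gm20472, another unprocessed pseudogene of chromosome 12, had 47 and 64 against 3 and 1, and the lncRNA Gm15691 had 50 and 57 against 0 and 1. Gm25186, an snRNA row, had 34 and 53 against 0 and 3 and the highest CPM ratio between the Ezh2 f/f libraries of any member, 1.69. The lncRNA Gm47922 had the lowest, 0.544, with 48 and 24 reads against 0 and 0.

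Of the next by mean count, Gm9465 had 39 and 45 against 3 and 3 reads, Gm42980 34 and 36 against 3 and 1, Gm15846 44 and 25 against 2 and 3, and Gm41611 38 and 30 against 3 and 3. Ccnd3-ps, a processed pseudogene of the cyclin gene Ccnd3, had 39 and 26 against 1 and 2. Its parent had 610 and 507 against 515 and 458 and was lower by far less (-0.29, SE 0.114, adjusted p = 0.0369, edgeR). Rpl13-ps1 had 30 and 33 against 2 and 2, beside 15277 and 13246 against 9122 and 8233 for Rpl13 (-0.81, SE 0.0799, adjusted p = 7.26e-07). Reads of a processed pseudogene can come from its parent, so both rows are uncertain. Rpl13-ps1 was 1 of the 17 noncoding members below the 10 with the most reads, which had means between 21.5 and 31.5 reads in Ezh2 f/f and included the antisense RNA Vax2os (20 and 23 against 1 and 1), the lncRNA Crnde (21 and 30 against 2 and 1) and a row that carries the name of 7SK (29 and 24 against 2 and 3).

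The miRNA gene Mir296, at the imprinted Gnas locus, was counted 28 and 29 times in Ezh2 f/f against 3 and 2 times in Ezh2 cKO over 79 bases. These are reads over the span of the precursor, not a measure of the mature miRNA. Its mature arms in RefSeq (GRCm38.p6) are shown because they name what the locus makes; capitals mark the seed, bases 2 to 8, which the arms do not share.
mmu-miR-296-5p, chr2:174267093-174267113, minus strand: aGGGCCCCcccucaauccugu
mmu-miR-296-3p, chr2:174267058-174267079, minus strand: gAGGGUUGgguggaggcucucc
Mir298, 379 bases away on the same strand, had 9 and 19 reads in Ezh2 f/f against 1 and 0 in Ezh2 cKO, and was too low to test. Gnas itself was lower by a small amount (673 and 610 against 560 and 520; -0.34, SE 0.104, adjusted p = 0.0100, edgeR).

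Some members overlapped other genes, and the share of overlapping genes over all genes of each class was not computed. By the deposited positions, 19 of 58 members overlapped at least 1 other gene, of which 4 were protein coding (Treh, Gm38431, Slc18a1 and Atp2a1) and 15 were not. The overlapped gene lay on the other strand for 11 members and on the same strand for 8. Among 14 tested overlapping genes, 10 were lower in Ezh2 cKO and 2 were higher, where 33.6% and 34.7% of all genes tested were. The lncRNA Gm15533 (25 and 23 against 1 and 1 reads) overlaps Trim72, a muscle membrane repair gene on the other strand that showed the lowest value of these (253 and 276 against 10 and 13; -4.60, SE 0.251, adjusted p = 2.35e-09, edgeR). Gm45738 lies inside Zfp777 (-2.06), Gm17552 inside Carns1 (-2.18), the 7SK row inside Gas8 (-0.94) and Rpl13-ps1 inside Usp32 (0.89). Reads of such a pair may be assigned to either gene.

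The nearest gene on each side of a member, itself no member, was not used by the rule and was compared between the groups. There were 115 such neighbours, and 68 passed the filter on low counts. Of these, 32 were lower (47.1%) and 19 higher (27.9%) in Ezh2 cKO, where 33.6% and 34.7% of all 16793 genes tested were. The median log2 fold change of the neighbours was -0.31, against 0.02 over all genes. Overlapping neighbours held 9 of the 32 lower and 2 of the 19 higher ones. The count is a description, with no test over the neighbours, since several may share reads with a member. Without Ezh2 f/f library 2, 31 neighbours were lower and 17 higher.

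The neighbours with the largest differences are as follows. The lowest was B230303O12Rik (-5.28, SE 0.353, adjusted p = 1.60e-08), followed by Trim72 and Rrh, all edgeR values. Mex3a, an RNA-binding protein gene of progenitor cells, lies 633 bases from Rab25 on the other strand and had 6722 and 5763 reads against 625 and 621 (-3.41, SE 0.0964, adjusted p = 1.52e-11). 1700125H20Rik, near Rpl13-ps1, had 32 and 35 against 2 and 6 (-3.12, SE 0.507, adjusted p = 8.48e-05), and -4.08 without Ezh2 cKO replicate 2. For these genes both Ezh2 f/f libraries lay above both Ezh2 cKO libraries.

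Other neighbours were higher in Ezh2 cKO. Tmem255b, 13238 bases from Grk1, had 9 and 12 reads in Ezh2 f/f against 93 and 80 in Ezh2 cKO (2.93, SE 0.327, adjusted p = 2.34e-06, edgeR). Gatd3a, beside Gm47922, was higher by 1.81, Sntg2, beside Gm15691, by 1.54, and Lpcat2, beside Slc6a2, by 1.53 (2.27 without Ezh2 f/f replicate 2) on the log2 scale, in addition to Zfp719 (adjusted p between 3.35e-09 and 7.54e-04, edgeR). Members therefore had neighbours that differed in either direction.

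**Figure D5:**
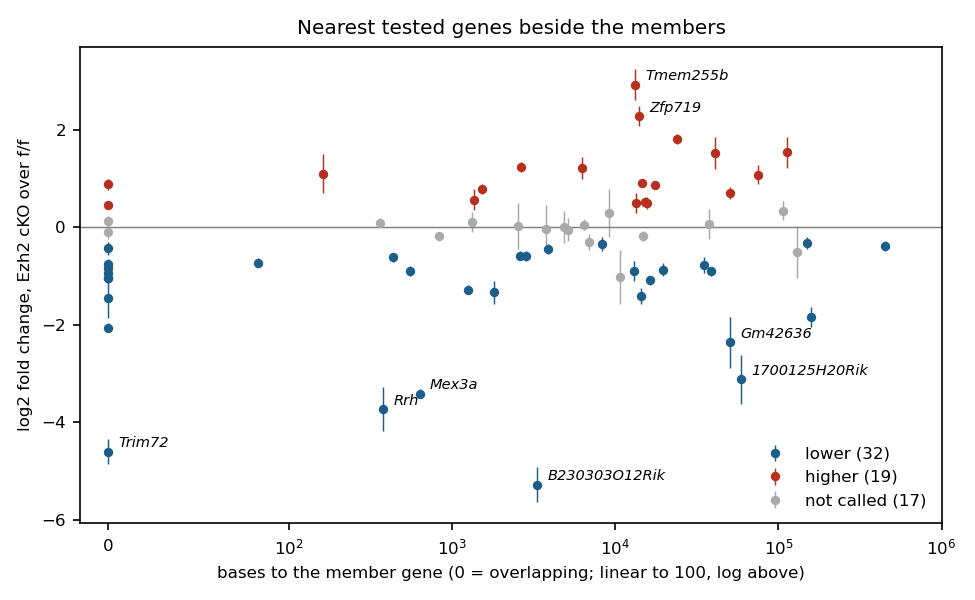
Log2 fold change (Ezh2 cKO over Ezh2 f/f, bars are the standard error of the edgeR fit) of the 68 tested neighbours, by distance in bases to the member (0 for overlap; linear to 100, then logarithmic). Among them 32 are lower, 19 higher and 17 not called, and the lowest, B230303O12Rik, lies 3316 bases from its member.

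The deposited gene ontology columns gave a term to 41 of the 58 members. Of these, 11 were not protein coding, and Gm15533, a lncRNA, carried terms of muscle development and ubiquitin ligase activity, so the columns were not used to assign roles. The most frequent terms were broad: integral component of membrane, nucleus and plasma membrane, with 11 members each (26.8%), against 17.5%, 32.0% and 17.3% of the annotated autosomal genes with at least 20 reads in both Ezh2 f/f libraries.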

How the data were processed

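The count of reads per gene in each of 4 libraries and FPKM values, which scale each count to gene length and library total, were used as the authors deposited them, for 29224 genes. The submitters' processing notes name Bowtie2 2.2.3, TopHat2 2.0.12, HTSeq 0.6.0 and the mm9 build, without their roles; the build of the deposited positions, the annotation and the use of strand are not given in the sources used here, and the positions differ from those of GRCm38. The deposited mean over libraries, and the authors' own comparison (ratio, log2 ratio and p-values), were not used. Every sample column was used (0 left out).

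Members were found on raw counts. The members, the gene lists and the rule for named genes were chosen with earlier results of these data known. All protein-coding members, the 10 noncoding members with the most reads, the 5 nearest misses on each limit (3 existed at the Ezh2 f/f limit), the 5 called neighbours with the largest change in each direction and up to 4 called genes of a source list were named; relatives, overlapping genes and list genes beyond these were chosen after their values were seen, as were further members described. Tissues were assigned to members by hand. In the photoreceptor list, 1 gene is not reported here. Counts were filtered with filterByExpr, which left 16793 genes, scaled by TMM (CPM values) and tested with edgeR's quasi-likelihood test with the group as the only term; calls were made at a Benjamini-Hochberg adjusted p under 0.05. With 2 libraries per group, no permutation of a single gene's values could pass that threshold. Ratios of summed reads carry exact 95% intervals that cover counting error only, and 3 counts over the group were the floor. Totals of 16273308 to 17522152 counts set the precision. Promoter and miRNA sequences are RefSeq's (GRCm38.p6), with the first listed start per gene.

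Alternatives were other limits of the rule, DESeq2's Wald test, DESeq2 size factors, no filter, limma on log2(FPKM + 1) with at least 1 FPKM in 2 libraries, a block for the replicate number, leaving out each library, and 3 neighbours per side. R 4.3.3, edgeR 4.0.16, limma 3.58.1, DESeq2 1.42.0, Python 3.11.15, numpy 2.4.6, pandas 2.3.3 and scipy 1.17.1 were used, and the tests were tried on simulated data.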

Additional observations from a re-analysis of the deposited data

How the results depend on the processing

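The number of members followed the limits of the rule: 11 genes with at most 0 counts in Ezh2 cKO, 24 with at most 1, 92 with at most 5, 145 with at least 10 counts in Ezh2 f/f, 7 with at least 50, and 31 when only protein-coding rows were kept. With limits in CPM there were 56, of which 55 were members. Leaving out 1 library gave 80 to 89 genes; without Ezh2 cKO replicate 1, 89 genes met the rule. With the nearest 3 genes on each side, 76 neighbours were lower and 51 higher of 185 tested. The counts of genes, neighbours and source list genes called in each direction stayed within 1.5 times under every other alternative run.

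The replicate number as a block gave 5599 lower and 5795 higher genes over all, 31 and 19 neighbours, and 66 and 77 source list genes. Deviations of libraries with the same number correlated at r = 0.13 over 16793 genes, with only 2 pairs. The labels name no shared animal, litter or day, though libraries of the same number also shared the presence or absence of Y-linked reads, so the number was not taken as a pairing. The 10 named neighbours kept direction and call in all 88 values under the alternatives, but not size: without Ezh2 cKO replicate 2, 1700125H20Rik moved from -3.12 to -4.08, and without Ezh2 f/f replicate 2, Lpcat2 moved from 1.53 to 2.27. On log2(FPKM + 1), whose pseudocount shrinks low genes, B230303O12Rik stood at -1.57, Trim72 at -2.62, 1700125H20Rik at -1.28, Tmem255b at 1.59, Zfp719 at 1.24 and Lpcat2 at 0.84. A mean under 50 reads in Ezh2 f/f lay behind 47 members, which limits the precision of their ratios.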

Other observations

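Genes of other cell types and regions were counted in lists fixed with earlier results known, leaving out the members; over all genes tested, 33.6% were lower and 34.7% higher in Ezh2 cKO, and no list was tested as a whole. Of 10 tested genes of fetal tissues, 7 were lower and 0 higher, while Arid3b (0.19), Nr6a1 (0.05) and Trim71 (-0.36) were not called; Dlk1 stood at 390 and 578 against 41 and 31 reads (log2 fold change -3.85) and Igf2bp1 at 110 and 106 against 14 and 6 (-3.51). Genes of Cajal-Retzius cells and the cortical hem had 6 lower and 1 higher of 9, with Lhx5 at 68 and 132 against 6 and 11 reads (-3.64); Lhx5 and Ebf3 were higher in Ezh2 f/f library 2 than in library 1 by 2.11- and 3.02-fold in CPM. All 3 tested hypothalamic regulators, Fezf1, Vax1 and Nkx2-1, were lower (-3.47, -2.26 and -2.11). The thalamic list had 3 lower and 0 higher of 6, and Tcf7l2 within it rested on library 2 of Ezh2 f/f.

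The remaining lists are given beside the shares over all genes tested (33.6% lower and 34.7% higher). Several held calls in a single direction, and others held calls in both. Lower and higher genes numbered 7 and 0 of 10 for cycling cells, 7 and 1 of 10 for meninges, 7 and 2 of 13 for interneurons, 4 and 1 of 8 for intermediate progenitors, 4 and 4 of 8 for radial glia, 4 and 2 of 6 for the olfactory bulb and 1 and 1 of 6 for midbrain and hindbrain. They numbered 0 and 10 of 10 for the oligodendrocyte lineage, 0 and 8 of 8 for microglia, 1 and 9 of 10 for pan-neuronal genes, 2 and 6 of 8 for the striatum, 2 and 5 of 7 for hypothalamic peptides, 0 and 3 of 5 for erythroid cells, 1 and 2 of 8 for endothelium, 1 and 3 of 7 for mural cells, and 0 and 1 of 2 for neural crest. Heart and fast muscle, added after values were seen, had 1 and 3 of 6. The pituitary and Polycomb target lists had 0 genes that passed the filter on low counts, so both were left without a call by edgeR.

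Avp and Otp, left out by the rule, met its count limits: Avp had 80 and 242 reads in Ezh2 f/f against 0 and 0 in Ezh2 cKO, and Otp 82 and 100 against 1 and 2.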
